A study of Mus musculus with 24 samples.

Results

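The comparison asked whether loss of Mysm1 changed mRNA levels differently in 2 populations of mouse bone marrow, MPP2 multipotent progenitors and haematopoietic stem cells (HSC). The value compared was the KO effect in MPP2 (KO minus Het, log2) minus the KO effect in HSC, called the interaction here. A value above 0 means that KO was higher relative to Het in MPP2 than in HSC. The libraries were chosen by population and genotype label, which gave 12 of the 24 RNA-seq libraries of the series, 3 in each of 4 groups.

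Bone marrow of C57BL/6 mice of 8 to 12 weeks, with males and females pooled, was sorted for cells with Kit, Sca-1 and CD150 on their surface and without Flt3 or markers of mature lineages. HSC were CD34-negative and CD48-negative, and MPP2 were positive for both. KO mice were Mysm1 fl/fl CreERT2 and Het mice were Mysm1 +/fl CreERT2, and both received tamoxifen at 0.15 mg/g in 8 doses over 16 days. All 12 libraries therefore share the drug-inducible Cre and the drug, and Het cells could lose 1 allele. The labels name no promoter for CreERT2, and they report deletion in blood and lymphoid organs, so cells around the sorted ones could lose Mysm1 too. Sham libraries, 2 per population, came from floxed mice given corn oil alone. They are outside the contrast and are used below as libraries that it does not share. Replicates carry the numbers 1, 2_3 and 4, and Sham lacks number 1. Nothing in the labels says that the numbers are separate sets of mice, so a p-value reflects only how far these samples, which may be technical repeats, spread.

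Mysm1 encodes a deubiquitinase that removes ubiquitin from histone H2A, a mark laid down by Polycomb complexes on silent genes. Without it blood stem cells are known to fail, with active p53, the transcription factor that halts the cycle or kills damaged cells. HSC are mostly quiescent and renew themselves for life, while MPP2 are cycling progenitors that lean towards platelets, red cells and myeloid cells. In passing from HSC to MPP2, cells switch off stem cell genes and switch on genes of division and lineage.

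Sort genes followed the gates only in part. Cd34 did not separate the populations, at 44.1 to 106 CPM in HSC libraries and 51.5 to 272 CPM in MPP2 libraries. Cd48, the gene of the other antigen that does so at the surface, ran from 0 to 2.02 CPM (counts scaled to the TMM-adjusted library total) in HSC libraries and from 13.8 to 56.9 CPM in MPP2 libraries, Sham included. Within MPP2, Cd48 was at 56.9, 34 and 35.2 CPM in KO and at 13.8, 24.1 and 17.5 CPM in Het, without overlap. The CD150 gene Slamf1 was at 39.5, 37.4 and 51.3 CPM in MPP2 KO and at 26.2, 20.2 and 27.5 CPM in MPP2 Het, and it overlapped in HSC. The Sca-1 gene Ly6a ran from 16.8 to 26.7 CPM in HSC but from 0.825 to 8.48 CPM in MPP2, low for a Sca-1-positive gate. In HSC, KO lay below Het for the stem cell genes Procr (40.2, 49.9 and 57.7 against 65.9, 114 and 92.1 CPM) and Fgd5 (46, 56.5 and 46.7 against 72.4, 140 and 91 CPM). It lay above Het for Vwf (672, 480 and 578 against 374, 293 and 346 CPM). Hlf overlapped in both populations, and Procr, Fgd5 and Vwf in MPP2. Whether the gates held the same cells in KO and Het was not tested. Flt3 was at 98 CPM in MPP2 Het library 2_3 and at 4.5 and 14 CPM in the other MPP2 Het libraries. The same library held 2190 CPM of the granulocyte gene Mpo, against 71.3 and 184 CPM in the other MPP2 Het libraries. HSC Het library 1 stood apart in the erythroid gene Car1, at 176 CPM against 5.65 and 17.9 CPM in the other HSC Het libraries. HSC KO library 1 and HSC Het library 2_3 had the fewest detected genes of the 12, 15740 and 15932, against 16894 to 21150 in the others. Totals ran from 18823971 to 53196624 counts. Mysm1 itself, counted over the whole gene, was at 96.3, 115 and 121 CPM in HSC KO and at 129, 138 and 109 CPM in HSC Het. In MPP2 Mysm1 was at 88.1, 92.6 and 102 CPM in KO and at 105, 112 and 98.5 CPM in Het. The groups overlapped in both populations, and its interaction was 0.02 ± 0.20 (SE). The deletion removes a single exon per the labels, so whole-gene counts check it little. In bulk samples fewer cells of a type and less RNA per cell cannot be told apart.

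Of 21456 genes tested, 7 passed the interaction test, which is 0.0326% of them: Kcnk5, Gas6, Nrk, Pik3cd, Glipr2, Plxdc2 and Tgm2 (edgeR quasi-likelihood F test, two-sided, Benjamini-Hochberg over all genes tested, threshold 0.05). In all 7 the interaction was above 0. At an unadjusted p under 0.05 there were 1565 genes, 773 above 0 and 792 below, and the median interaction of all genes was -0.0951. On build mm9 they lie at chr14:20959280-21001004 (Kcnk5, minus strand), chr8:13465374-13494535 (Gas6, minus), chrX:135448969-135545071 (Nrk, plus), chr4:149023277-149076680 (Pik3cd, minus), chr4:43970273-43991990 (Glipr2, plus), chr2:16277931-16677466 (Plxdc2, plus) and chr2:157942138-157972172 (Tgm2, minus), where counts were summed over the whole gene. All 7 had lower means in MPP2 than in HSC among both Het and Sham libraries. The shared pattern was a gene high in HSC that stood lower in KO HSC or higher in KO MPP2. Its gap between the populations was smaller in KO. The gap, MPP2 minus HSC, even turned above 0 for Pik3cd (-0.89 in Het, 0.46 in KO) and Glipr2 (-1.45 in Het, 0.54 in KO), and it was 0.01 in KO for Kcnk5. The interaction contains the Het gap, so a low gap in Het and a smaller one in KO follow in part from the choice of genes. Over all genes the median gap, MPP2 minus HSC, was -0.289 in Sham, -0.0122 in Het and -0.165 in KO.

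Promoters of 3 of the 7 genes and of Cish, the first gene short of the threshold, are shown because the 7 moved in 1 direction and because Cish is a classical target of STAT transcription factors. They are RefSeq windows of build GRCm38.p6 from 250 bases before to 30 after the start site, written 5′ to 3′ along the gene. The genes were taken by p, but Pik3cd, which has 3 starts in the table, is not shown, and Cish was added after its values were seen. Capitals mark the GC box GGGCGG, bound by Sp and Klf factors, and the STAT motif TTCNNNGAA, each on either strand. The windows are chr14:20181753-20182032 (minus strand) for Kcnk5, chr8:13494506-13494785 (minus) for Gas6, chrX:138914180-138914459 (plus) for Nrk and chr9:107296409-107296688 (plus) for Cish.
Kcnk5: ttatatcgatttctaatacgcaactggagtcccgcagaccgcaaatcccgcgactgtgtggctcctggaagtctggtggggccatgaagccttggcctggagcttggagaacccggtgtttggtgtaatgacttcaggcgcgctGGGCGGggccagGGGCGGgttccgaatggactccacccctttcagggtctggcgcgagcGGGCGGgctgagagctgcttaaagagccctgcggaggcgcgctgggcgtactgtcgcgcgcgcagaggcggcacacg
Gas6: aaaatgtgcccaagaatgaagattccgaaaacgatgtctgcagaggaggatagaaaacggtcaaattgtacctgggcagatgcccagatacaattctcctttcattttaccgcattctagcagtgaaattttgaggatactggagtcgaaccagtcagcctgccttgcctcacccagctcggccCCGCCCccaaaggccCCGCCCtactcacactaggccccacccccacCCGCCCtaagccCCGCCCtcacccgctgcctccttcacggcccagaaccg
Nrk: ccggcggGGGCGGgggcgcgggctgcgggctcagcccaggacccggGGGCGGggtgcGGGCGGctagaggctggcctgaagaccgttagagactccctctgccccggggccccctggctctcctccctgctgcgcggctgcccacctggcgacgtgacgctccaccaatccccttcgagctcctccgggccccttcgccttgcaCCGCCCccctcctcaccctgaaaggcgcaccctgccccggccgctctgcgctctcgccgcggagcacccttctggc
Cish: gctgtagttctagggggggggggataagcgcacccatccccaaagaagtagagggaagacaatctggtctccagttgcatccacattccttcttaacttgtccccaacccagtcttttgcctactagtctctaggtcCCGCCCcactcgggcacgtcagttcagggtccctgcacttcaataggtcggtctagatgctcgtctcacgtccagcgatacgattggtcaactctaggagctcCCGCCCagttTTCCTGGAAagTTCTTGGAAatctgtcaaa
The GC box occurred 3 times in the Kcnk5 window, 4 times in that of Gas6, 4 times in that of Nrk and 2 times in that of Cish, and it is present in 34.7% of all 32851 promoter windows of this length. The E2F motifs TTTCGCGC, TTTGGCGC and TTTCCCGC, held by 0.304%, 0.469% and 1.01% of windows, and the p53 consensus motif, held by 7.84%, were not found in these 4. TTCNNNGAA, held by 7.83% of windows, was found only in that of Cish, at bases 1 to 9 and 12 to 20 counted from the start site. The GC box was added to the search after the E2F and p53 motifs gave no match, and TTCNNNGAA after its letters had been noticed in the Cish window, so these matches support nothing. A match is a run of letters, not a bound site.

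Gas6, the secreted ligand of the Tyro3, Axl and Mertk receptor kinases, had one of the widest differences. In MPP2 it was at 6.42, 6.47 and 3.93 CPM in KO and at 0.617, 1.42 and 0.603 CPM in Het. In HSC it was at 6.72, 9.90 and 8.08 CPM in KO and at 11.2, 12.2 and 14.5 CPM in Het. KO libraries thus lay above Het in MPP2 and below Het in HSC, without overlap in either. The interaction was 3.30 ± 0.57 (adjusted p = 0.0198), from a rise of 2.68 ± 0.42 in MPP2 (adjusted p = 0.000916) and a difference of -0.62 ± 0.39 in HSC (adjusted p = 0.475). Sham libraries stood at 12.8 and 14.1 CPM in HSC and at 0.825 and 1.46 CPM in MPP2, next to Het. The MPP2 Het values rest on 20, 38 and 24 counts.

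Nrk, the Nik-related kinase encoded on the X chromosome, had KO and Het in opposite order in the 2 populations. It was at 3.44, 7.30 and 3.98 CPM in HSC KO and at 11.5, 19.8 and 20.7 CPM in HSC Het. In MPP2 it was at 2.23, 2.10 and 1.49 CPM in KO and at 0.432, 0.597 and 1.01 CPM in Het. Every KO library was below every Het library in HSC and above every Het library in MPP2. The interaction was 3.32 ± 0.58 (adjusted p = 0.0198). Nrk fell by 1.82 ± 0.40 on the log2 scale in HSC (adjusted p = 0.0258), and the MPP2 difference of 1.5 ± 0.42 did not pass (adjusted p = 0.161). The MPP2 Het values rest on 14, 16 and 40 counts. Sham libraries stood at 25.6 and 14.5 CPM in HSC and at 0.530 and 0.862 CPM in MPP2, within or near the Het range.

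Kcnk5, a two-pore potassium channel, was at 34.9, 28.3 and 27.6 CPM in HSC KO and at 50.9, 52.4 and 73.2 CPM in HSC Het. MPP2 libraries had 30.4, 28.4 and 32.8 CPM in KO and 17.3, 19.3 and 22.7 CPM in Het. The groups did not overlap in either population, and the KO libraries of both populations lay at about the same level. The gap between populations, MPP2 minus HSC, was -1.57 in Het and 0.01 in KO on the log2 scale. The interaction was 1.59 ± 0.27 (adjusted p = 0.0198). Kcnk5 fell by 0.96 ± 0.19 in HSC (adjusted p = 0.0143), and its MPP2 difference of 0.63 ± 0.19 did not pass (adjusted p = 0.244). Sham libraries, at 65.9 and 58.5 CPM, lay with Het in HSC, but in MPP2 they were at 25.8 and 29.9 CPM, above every Het library and overlapping with KO.

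Pik3cd, the delta catalytic subunit of phosphoinositide 3-kinase in blood cells, was at 81.8, 86.0 and 79.2 CPM in HSC KO and at 121, 197 and 181 CPM in HSC Het. MPP2 libraries had 112, 104 and 123 CPM in KO and 90.5, 96.2 and 82.4 CPM in Het. KO lay below Het in HSC and above Het in MPP2, and KO HSC lay below every MPP2 library but Het library 4. The interaction was 1.35 ± 0.26 (adjusted p = 0.0435), with a fall of 1.02 ± 0.18 in HSC (adjusted p = 0.0084). The MPP2 difference was above 0, at 0.33 ± 0.18, and did not pass (adjusted p = 0.951). MPP2 Sham libraries, at 107 and 105 CPM, lay within the range of MPP2 KO. It was the only one of the 7 whose MPP2 and HSC Sham levels did not pass the test between populations (-0.54, adjusted p = 0.09).

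Plxdc2, a membrane protein with a plexin domain, differed almost wholly in HSC. It was at 24.7, 15.0 and 13.4 CPM in HSC KO and at 60.2, 81.3 and 84.4 CPM in HSC Het. In MPP2 the KO libraries, at 10.9, 9.76 and 13.9 CPM, overlapped with Het at 7.96, 8.62 and 12.1 CPM. The interaction was 2.35 ± 0.42 (adjusted p = 0.0435), with a fall of 2.09 ± 0.31 in HSC (adjusted p = 0.00257). The MPP2 difference was above 0, at 0.26 ± 0.30, and did not pass (adjusted p = 0.993). Sham libraries were at 79.8 and 65.0 CPM in HSC and at 9.13 and 12.5 CPM in MPP2.

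Glipr2, a Golgi-associated protein, showed the reverse and differed in MPP2. It was at 67.6, 54.3 and 63.5 CPM in MPP2 KO and at 13.1, 18.2 and 17.1 CPM in MPP2 Het. In HSC the KO libraries, at 36.6, 44.7 and 46.4 CPM, overlapped with Het at 36.6, 41.7 and 54.3 CPM. MPP2 KO was thus at or above every HSC library. MPP2 Sham, at 27.8 and 17.9 CPM, lay below KO. The interaction was 1.99 ± 0.37 (adjusted p = 0.0435), with a rise of 1.94 ± 0.27 in MPP2 (adjusted p = 0.000293) and -0.05 ± 0.26 in HSC (adjusted p = 0.984).

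Tgm2, tissue transglutaminase, which cross-links proteins, was at 203, 182 and 157 CPM in HSC KO and at 210, 357 and 327 CPM in HSC Het. MPP2 libraries had 67.1, 71.6 and 60.6 CPM in KO and 30.8, 38.7 and 34.9 CPM in Het. The groups did not overlap, though HSC Het library 1 lay close to HSC KO. MPP2 Sham, at 32.2 and 53.3 CPM, lay below KO and in part above Het. The interaction was 1.65 ± 0.31 (adjusted p = 0.0435), while neither single effect passed (-0.72 ± 0.22 in HSC, adjusted p = 0.119, and 0.93 ± 0.22 in MPP2, adjusted p = 0.0565).

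**Figure D1:**
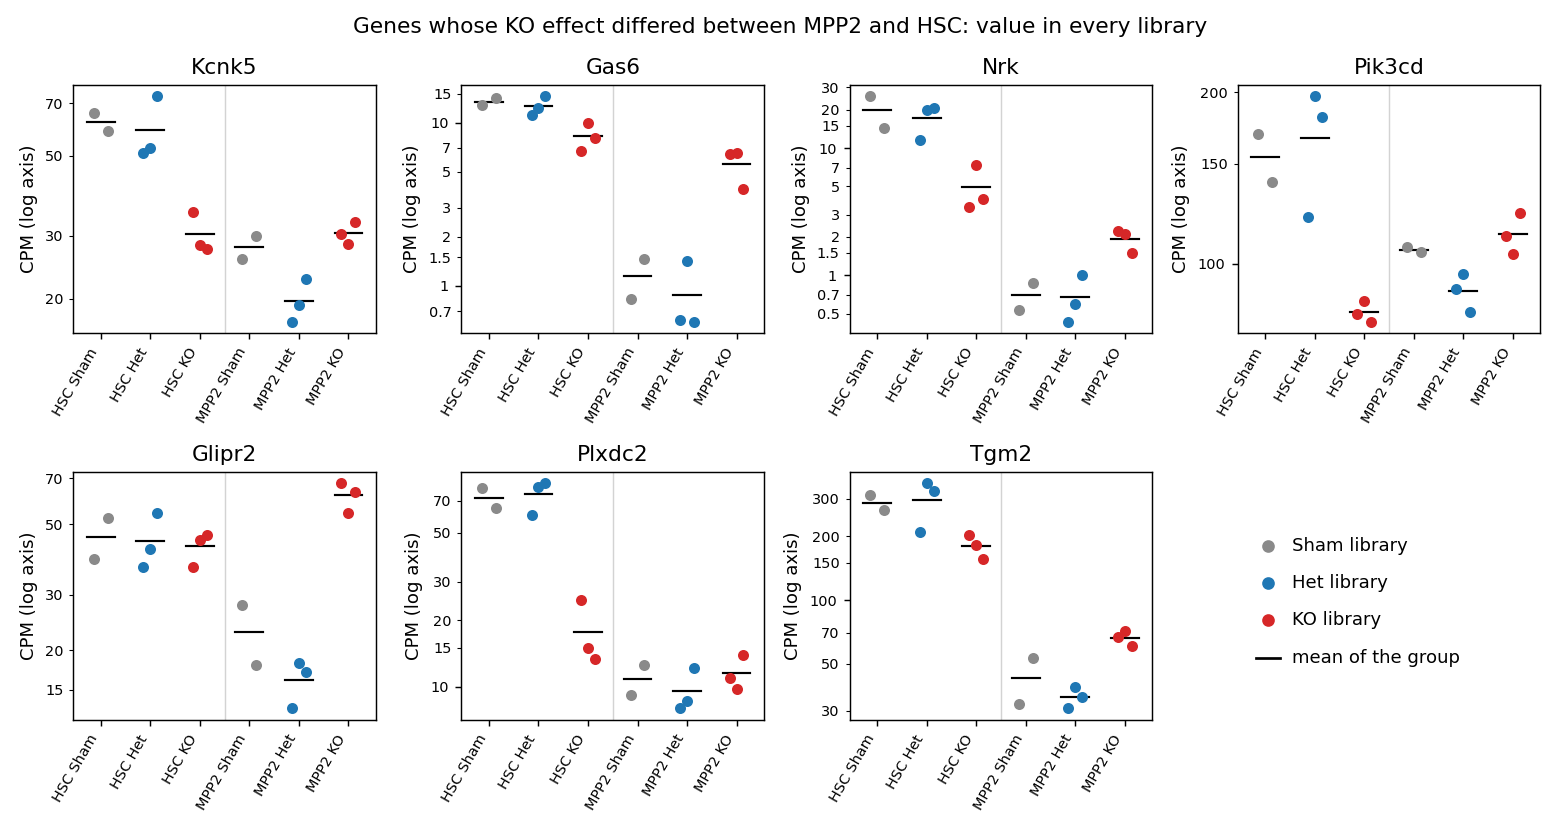
Level of each of the 7 genes in CPM (log axis) in every HSC and MPP2 library, by group; points are libraries and lines are group means. HSC KO lies below HSC Het without overlap except for Glipr2, and MPP2 KO lies above MPP2 Het without overlap except for Plxdc2.

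MPP1 progenitors, which are CD34-positive and CD48-negative and share no library with the contrast, gave KO effects for the same genes that can be set beside these. The MPP1 differences were -0.74 for Kcnk5, 0.16 for Gas6, -1.11 for Nrk, -0.65 for Pik3cd, 0.71 for Glipr2, -1.85 for Plxdc2 and -0.35 for Tgm2. Each lay between the HSC and the MPP2 value of its gene. The 7 genes were chosen for HSC and MPP2 effects that lie far apart, so this is a description and not a test. Plxdc2 fell in MPP1 (adjusted p = 0.018) and was the only one of the 7 to pass there, where 0.0559% of all genes passed.

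The calls rested on few libraries. All 7 interactions stayed above 0 under all 25 alternatives. Of the 12 fits that left out 1 library, Kcnk5 and Nrk passed in 5 each, Gas6 in 3 and the other 4 genes in 2 each. The number of genes that passed in these fits ran from 0 to 50. It was 50 without HSC Het library 1, which stands apart in Car1, and 19 without MPP2 Het library 2_3, which stands apart in Mpo. It was 0 without any one of HSC KO library 4, HSC Het library 4, MPP2 KO library 1, MPP2 KO library 2_3 and MPP2 Het library 1, with 1680, 1629, 1186, 1525 and 1222 genes at an unadjusted p under 0.05. It was 1 without HSC KO library 2_3 or HSC Het library 2_3, 2 without HSC KO library 1 or MPP2 KO library 4 and 3 without MPP2 Het library 4. On all libraries DESeq2 called 67 genes, 48 of them above 0 and all 7 among them, and limma-trend called 5. With Sham in place of Het as the control, 11 genes passed, and Nrk was the only one of the 7 among them (3.52, adjusted p = 0.0415).

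**Figure D2:**
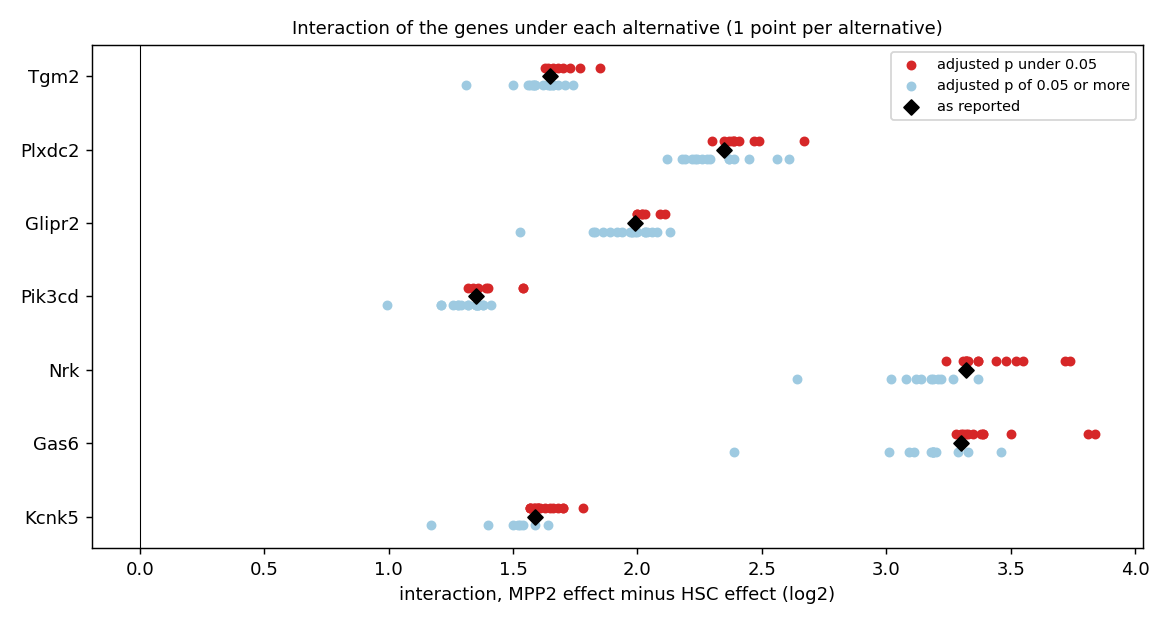
Interaction of the 7 genes (log2, x axis) as reported (black) and under each of 25 alternatives, with passing values in red and the others in blue. All points lie to the right of 0, and for 5 of the 7 genes most points do not pass.

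The genes next in order of p did not pass and are given as values. Cish and Socs2 encode feedback inhibitors of cytokine receptor signalling that STAT5 induces. Cish was at 6.4, 5.48 and 7.59 CPM in HSC KO and at 17.3, 19 and 23.2 CPM in HSC Het. In MPP2 it was at 4.06, 5.11 and 3.39 CPM in KO and at 2.56, 2.91 and 3.29 CPM in Het. The groups did not overlap in either population and lay in opposite order. The interaction of Cish was 2.13 ± 0.45 (adjusted p = 0.105), with a fall of 1.61 ± 0.32 in HSC (adjusted p = 0.0143). Socs2 fell by 1.68 ± 0.36 in HSC (adjusted p = 0.0248), and its interaction was 2.21 ± 0.51 (adjusted p = 0.164).

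Plk2, a polo-like kinase that is also a p53 target, had the largest interaction among the genes named by rank, 5.07 ± 0.96, without passing (adjusted p = 0.105). It was at 9.06, 4.23 and 4.37 CPM in MPP2 KO and at 0.123, 0.784 and 0.905 CPM in MPP2 Het. In HSC it was at 7.84, 7.42 and 6.04 CPM in KO and at 13.2, 37.8 and 23 CPM in Het. KO libraries of both populations came to lie in 1 range, from 4.23 to 9.06 CPM, between the 2 Het groups. Of the other genes above 0, the amidase gene Pglyrp2 (interaction 1.55), the RNA-binding Raver2 (2.03), the tight junction scaffold Tjp1 (1.48), the scaffold Nbea (1.43) and Cep170b (1.28) rose in MPP2 with adjusted p of 0.00294 to 0.0328. Morc4 (1.53) fell in HSC (adjusted p = 0.0231), and the prostaglandin E receptor gene Ptger4 (1.91) passed in neither.

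Of the 10 genes below 0, Knstrn, Asf1b and Cenpk act in mitosis or chromatin assembly. Knstrn, a spindle protein, was at 91.0, 59.6 and 66.3 CPM in HSC KO and at 23.3, 31.3 and 21.9 CPM in HSC Het. In MPP2 its KO libraries, at 131, 111 and 133 CPM, overlapped with Het at 132, 112 and 126 CPM. Knstrn rose by 1.51 ± 0.24 in HSC (adjusted p = 0.00519) to a level still below MPP2, and its interaction was -1.49 ± 0.33 (adjusted p = 0.164). Asf1b, a histone chaperone of replication, rose by 1.97 ± 0.35 in HSC (adjusted p = 0.00677) and had an MPP2 difference of 0.01 ± 0.32. Cenpk, a kinetochore protein, rose by 2.09 ± 0.32 in HSC (adjusted p = 0.00255) and had an MPP2 difference of 0.26 ± 0.30. Their interactions were -1.97 (adjusted p = 0.184) and -1.83 (adjusted p = 0.186). Fyb, an adaptor of platelets and T cells, Asap2 and the chaperone gene Hyou1 also rose in HSC (adjusted p of 0.000618, 0.0143 and 0.0234), with interactions of -0.91, -1.01 and -0.75. For Diras2 (-3.56), Zcwpw1 (-1.71) and Plekhg5 (-1.24) neither single effect passed.

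Irf8, a transcription factor of monocytes and dendritic cells, was the only gene of these 10 with a passing fall in MPP2 (2.91 ± 0.65 on the log2 scale, adjusted p = 0.0382), and its interaction was -3.85 ± 0.89 (adjusted p = 0.184). Its MPP2 Het values were 12.1, 52.7 and 4.65 CPM, with the highest in library 2_3, and its MPP2 KO values were 2.14, 3.15 and 3.93 CPM. That library held 2190 CPM of Mpo, and without it the interaction of Irf8 was -2.38 (adjusted p = 0.404). The fall of Irf8 in MPP2 did not pass without that library, without HSC KO library 1 or 2_3, without HSC Het library 1 or without any one of the MPP2 KO libraries.

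The pattern of the 7 genes was then read over wider sets defined without the contrast. Among Sham libraries 1651 genes were higher in HSC than in MPP2 (7.69% of those tested) and 2914 were higher in MPP2 (13.6%). Of the 1651 genes high in Sham HSC, 1368 (82.9%) had an interaction above 0, against 43.6% of all genes. Their median interaction was 0.441, made of a median KO effect of -0.304 in HSC and 0.114 in MPP2. Their median gap, MPP2 minus HSC, was -1.2 in Het and -0.774 in KO on the log2 scale, and -1.64 in Sham, which chose them. Between 76.7% and 88.2% of them were above 0 over the alternatives that keep Het as the control. This held for genes that passed the Sham test, not for a low Sham difference alone. In the 1073 genes with the lowest Sham difference (median -6.42), passing or not, the median interaction was -0.596. The 1651 genes and all genes were not matched for level.

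Genes high in Sham MPP2 were on the other side by less. Of the 2914, 26.8% had an interaction above 0, with a median of -0.172, a median KO effect of 0.298 in HSC and 0.144 in MPP2. Their median gap was 0.6 in Het and 0.441 in KO. This value depended on the HSC libraries with few detected genes: it was -0.056 without HSC KO library 1 and -0.00925, with 48.5% above 0, without both. By library, the mean level of the genes high in Sham HSC was 4.06, 4.34 and 4.27 log2 CPM in HSC KO and 4.49, 4.69 and 4.66 in HSC Het, without overlap. In MPP2 it was 3.26, 3.55 and 3.20 log2 CPM in KO and 3.06, 3.52 and 3.04 in Het, which overlapped. The KO and Het libraries were thus apart in HSC and not in MPP2. Across genes the Sham difference and the interaction had a Spearman correlation of -0.0412 over all tested genes and -0.293 over the 12235 with a mean above 1 log2 CPM. The 2 values share a fit but no libraries, and genes are not independent replicates.

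**Figure D3:**
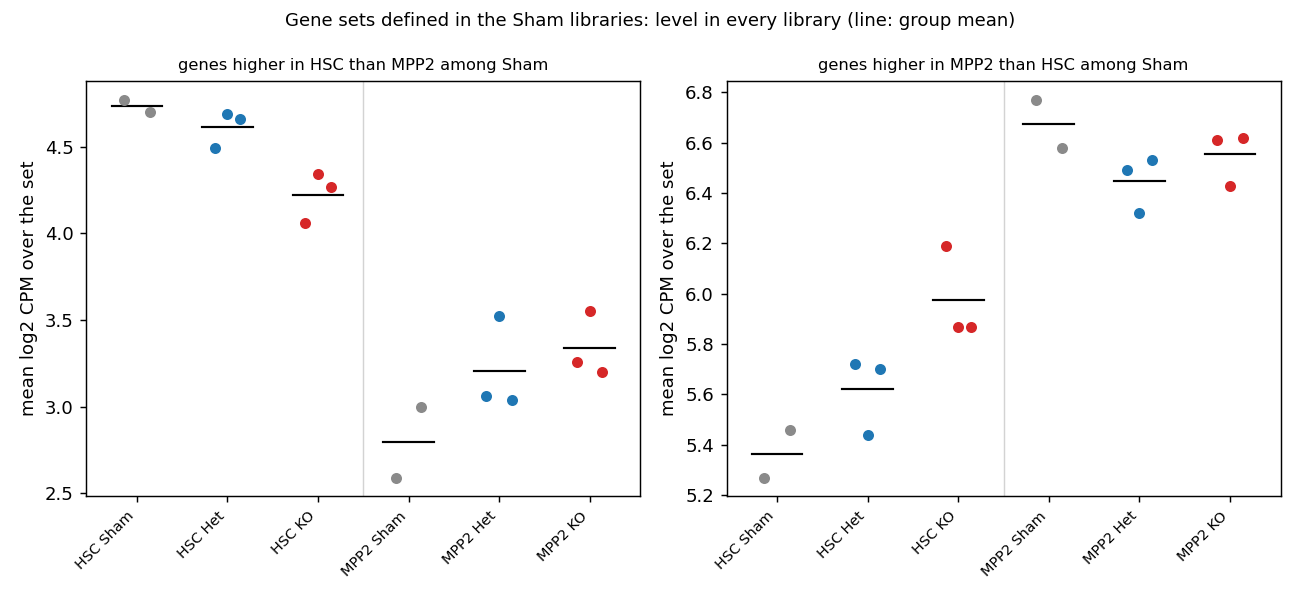
Mean log2 CPM over 1651 genes higher in HSC (left) and 2914 genes higher in MPP2 (right) among Sham libraries, in every library by group, with lines at group means. In HSC the KO libraries are below Het on the left and above Het on the right without overlap, and in MPP2 the KO and Het libraries overlap in both.

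Lists of related genes place these differences among known processes. In the fit reported here, with no block for the replicate number, no member of the 28 lists passed the interaction test, where 0.0326% of all genes passed, so each list is described by its counts and median beside the all-gene median of -0.0951. Over all genes 0.615% passed KO against Het in HSC and 0.415% in MPP2. The 132 HSC calls of all genes became 12 of 21382 tested without HSC KO library 1 and 13 of 21433 without HSC Het library 2_3. They became 4 of 21392 without both. List counts given below for those fits are to be read beside this loss of calls over all genes.

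Genes of stem cell identity and quiescence had a median interaction of 0.496, with 39 of 52 above 0 and 23 at an unadjusted p under 0.05. Their median KO effect was -0.224 in HSC and 0.176 in MPP2. In HSC 7 of 52 fell and 0 rose: Sult1a1, Socs2, Txnip, Ifitm1, Bmpr1a, Trib2 and Igf2r. In MPP2 1 rose, the RNA-binding protein Msi2, and 1 fell, the pseudokinase Trib2. Ifitm1, an interferon-induced membrane protein of stem cells, was at 21.5, 36.8 and 41.7 CPM in HSC KO and at 88.1, 141 and 137 CPM in HSC Het. In MPP2 its KO libraries, at 12.1, 13.4 and 14.3 CPM, lay within the Het range of 7.78 to 16.3 CPM. Its interaction was 2.09 ± 0.50 (adjusted p = 0.244). Mecom, a transcription factor that stem cells need, was at 81.6, 90.1 and 68.4 CPM in MPP2 KO and at 36.8, 50.1 and 35.9 CPM in MPP2 Het, without overlap. In HSC Mecom overlapped between KO (242, 210 and 211 CPM) and Het (239, 414 and 304 CPM), and its interaction was 1.5 ± 0.34 (adjusted p = 0.185). Without HSC KO library 1 the 7 HSC falls of the list became 0, and without HSC Het library 2_3 they became 1, while the median interaction ran from 0.454 to 0.607 over the 12 libraries left out.

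Genes of division stood on the other side. The G2 and mitosis list had a median interaction of -1.02 with 0 of 51 above 0, from a median KO effect of 1.31 in HSC and 0.251 in MPP2. The S phase and replication list had -0.542 with 2 of 47 above 0, from 0.747 in HSC and 0.214 in MPP2. In HSC 5 members of each rose, among them the helicase subunits Mcm2 and Mcm3, the primase subunit Prim1, the mitotic activator Cdc20 and the kinetochore subunit Ndc80, and in MPP2 0 members of either passed. Their mean level by library was 6.18, 5.49 and 5.10 log2 CPM for G2 and mitosis in HSC KO and 4.93, 3.71 and 3.97 in HSC Het, and 7.35, 6.95 and 7.13 in MPP2 KO against 7.02, 6.77 and 6.94 in MPP2 Het. KO HSC libraries thus lay above Het HSC and below every MPP2 library, and in MPP2 the groups overlapped. HSC KO library 1, the highest, and HSC Het library 2_3, the lowest, are those with the fewest detected genes, and without both the medians were -0.54 and -0.136, with 0 HSC rises in either list. Whether their low number of genes sets this value was not tested.

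Megakaryocyte and platelet genes had a median interaction of -0.922, with 4 of 28 above 0, a median KO effect of 1.11 in HSC and -0.107 in MPP2. The platelet glycoprotein Gp5, P-selectin (Selp) and Fyb rose in HSC, and 0 members passed in MPP2. The 3 HSC rises became 1 when HSC KO library 1 was left out, 1 when HSC Het library 2_3 was, and 0 when both were. Gp5 was at 38.0, 26.5 and 28.6 CPM in HSC KO and at 10.3, 6.46 and 14.0 CPM in HSC Het. In MPP2 Gp5 overlapped between KO (33.0, 27.3 and 49.6 CPM) and Het (30.2, 21.2 and 41.7 CPM). KO HSC libraries lay within the range of MPP2. Selp, in contrast, had an MPP2 difference of 0.83 ± 0.22 beside its HSC rise of 1.13 ± 0.22, and an interaction of -0.29 ± 0.31. The list median was -0.707 without HSC KO library 1 and HSC Het library 2_3.

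Cytosolic ribosomal proteins form the ribosome with its RNA, and some of their genes fell in HSC. The large subunit list had a median interaction of 0.316 with 45 of 48 above 0, from a median KO effect of -0.379 in HSC and -0.0638 in MPP2. The small subunit list had 0.363 with 33 of 33 above 0, from -0.206 in HSC and 0.0604 in MPP2. Of the HSC falls 10 were in the large and 7 in the small subunit. They became 2 and 1 when HSC KO library 1 was left out, 2 and 1 when HSC Het library 2_3 was, and 0 and 0 when both were. Without HSC KO library 2_3 they were 5 and 1, and the small subunit falls were also 1 without HSC Het library 4. Rps27l, a paralogue that p53 induces, rose in HSC. In MPP2 Rpl22l1, a paralogue of Rpl22, fell and Rps27l rose, and the other members did not pass. Rpl37 was at 435, 624 and 508 CPM in HSC KO and at 810, 1030 and 943 CPM in HSC Het. In MPP2 Rpl37 overlapped between KO (726, 557 and 643 CPM) and Het (756, 648 and 621 CPM), and its interaction was 0.76 ± 0.23 (adjusted p = 0.439). The list medians did not hold against the other control: with Sham in place of Het they were 0.0323 and 0.04, as the median MPP2 effect was then -0.392 for the large and -0.25 for the small subunit. Genes of this family share reads with many pseudogenes, so single values are uncertain.

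For other genes of protein synthesis and respiration the difference between the effects depended on the control. Mitochondrial ribosomal proteins had a median interaction of 0.0449, with 44 of 76 above 0, from 0.225 in HSC and 0.243 in MPP2. Nuclear-encoded oxidative phosphorylation genes had -0.0396, with 31 of 73 above 0, from 0.332 in HSC and 0.287 in MPP2. Ribosome biogenesis genes had -0.0796 and translation factors 0.12. The sign of these 4 medians changed with single libraries left out. With Sham in place of Het the medians were -0.382 with 9 of 76 above 0 for mitochondrial ribosomal proteins and -0.567 with 1 of 73 for oxidative phosphorylation. They were then -0.571 with 1 of 41 for ribosome biogenesis and -0.285 with 8 of 39 for translation factors.

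Some targets of p53 rose in each population. The median interaction was 0.26 for genes of cell cycle arrest and feedback (14 of 21 above 0), 0.359 for genes of cell death (12 of 15) and 0.342 for genes of repair and metabolism (12 of 17). In HSC 4, 2 and 0 members rose and 0 fell, and in MPP2 6, 5 and 3 rose and 1, 0 and 0 fell, the last being Ptpn14. Without HSC KO library 1 the HSC rises were 1, 0 and 0, and without HSC Het library 2_3 they were the same. The HSC calls of all genes were 12 and 13 in these fits. The MPP2 rises were 5, 2 and 1 without MPP2 KO library 1 and 4, 2 and 1 without MPP2 Het library 1. Over all genes the 89 MPP2 calls became 37 and 39 in those fits. Other single libraries left out gave 2 to 4, 0 to 3 and 0 rises in HSC and 4 to 7, 3 to 6 and 2 to 5 rises in MPP2. Cdkn1a, the p21 inhibitor of the cell cycle, was at 22.6, 19.7 and 18.5 CPM in MPP2 KO and at 0.617, 1.27 and 0.679 CPM in MPP2 Het. In HSC it was at 7.12, 4.22 and 7.90 CPM in KO and at 1.71, 0.00 and 0.276 CPM in Het. KO was above Het in both, and the interaction of 1.24 ± 1.07 did not pass (adjusted p = 0.927). Ccng1, cyclin G1, was at 367, 296 and 360 CPM in MPP2 KO, 115, 101 and 132 CPM in MPP2 Het, 189, 137 and 190 CPM in HSC KO and 94.9, 97.6 and 115 CPM in HSC Het. It rose by 1.56 ± 0.17 in MPP2 and by 0.74 ± 0.16 in HSC, and its interaction was 0.81 ± 0.23 (adjusted p = 0.335). The differences between populations of the cell death genes Bbc3 (1.29), Eda2r (1.46) and Bax (0.12) did not pass either (adjusted p of 0.573, 0.636 and 1).

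Granulocyte and monocyte genes had the lowest list median, -1.78, with 3 of 28 above 0. It rested on MPP2 Het library 2_3, without which it was -0.16 with 11 of 28 above 0. In that library the mean of the list was 5.73 log2 CPM, against 3.55 and 2.99 in the other MPP2 Het libraries and 2.60, 2.77 and 2.59 in MPP2 KO. Summed markers of mature neutrophils ran from 186 to 826 CPM in MPP2 Het and from 74.1 to 219 CPM in MPP2 KO, and from 187 to 669 CPM in HSC Het and 90.2 to 299 CPM in HSC KO. None of the 13 was at 0 in any group, and their median interaction was -0.812, or 0.492 without MPP2 Het library 2_3. The lymphoid priming list likewise changed from -0.197 to 0.697 without that library, where Satb1 stood at 56.9 CPM against 8.80 and 10.2 CPM in the other MPP2 Het libraries. Markers of B cells (summed 16.3 to 77.4 CPM), T and NK cells (26.9 to 69 CPM) and macrophages (31.1 to 72.2 CPM) spanned overlapping ranges in KO and Het, and the summed stroma and endothelium markers in MPP2 were 111 to 134 CPM in KO and 140 to 158 CPM in Het. Among defining markers, Vpreb3 was at 0 in MPP2 KO, Dcn in HSC KO, Lum in HSC Het, and Hba-a1, Hba-a2 and Hbb-b2 in all 4 groups. Hbb-b1, which did not pass the count filter, was at 0 in HSC Het and MPP2 Het but not in either KO group. The summed late erythroid markers, 4 of 10 listed, were at 19 to 26.3 CPM in KO against 28.6 to 30.2 CPM in Het in HSC. In MPP2 they were at 27.8 to 31.5 CPM against 32.5 to 41.4 CPM. Neither pair of sums overlapped, but most of each sum was 1 gene, Slc25a37. It was at 24.2, 21.1 and 17.8 CPM in HSC KO and at 25.4, 25 and 24.5 CPM in HSC Het, and it overlapped in MPP2. The mean log2 CPM of these markers overlapped between KO and Het in both populations. The part of these cells in the interaction was not tested.

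**Figure D4:**
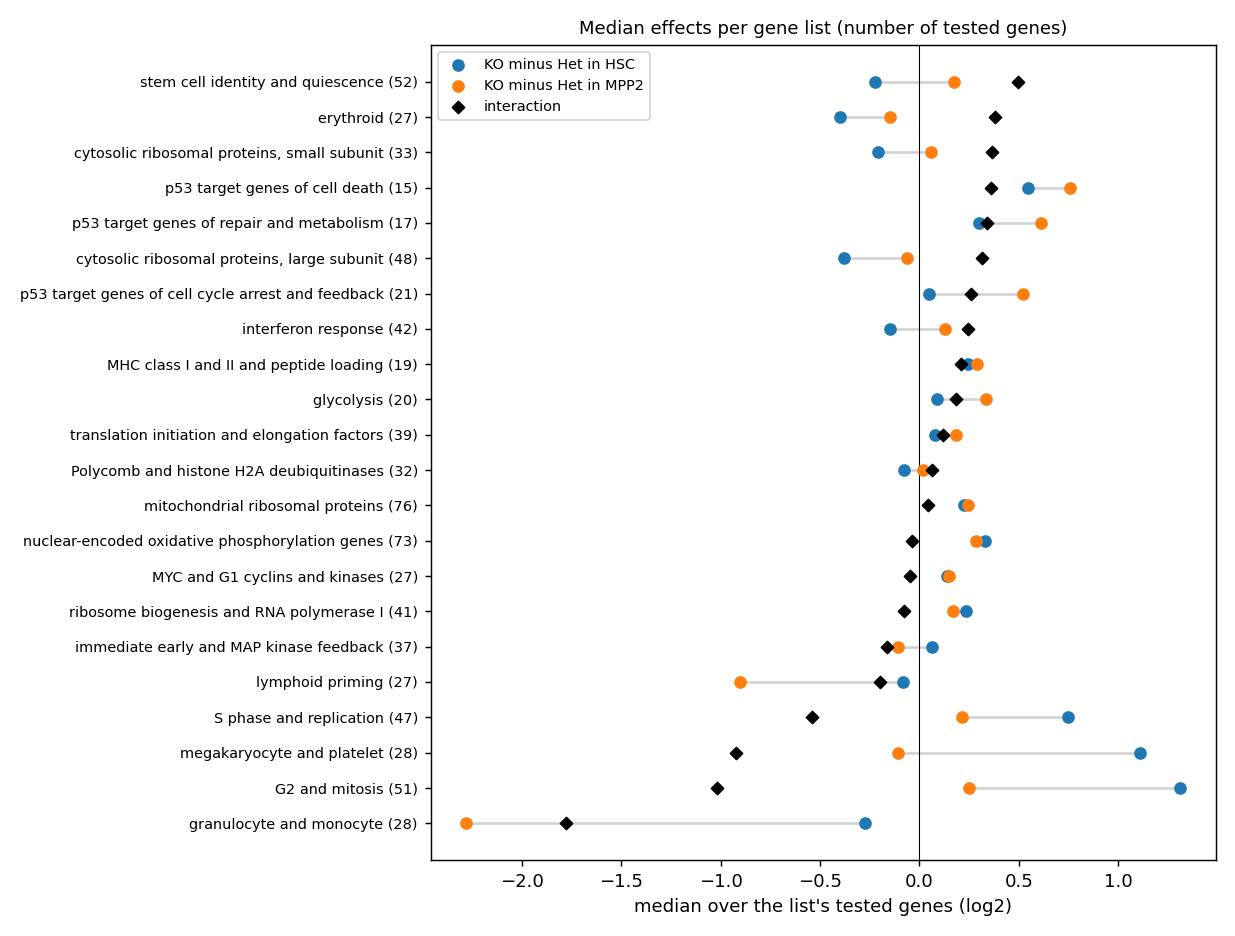
Median KO effect in HSC (blue), in MPP2 (orange) and median interaction (black) in log2 for 22 gene lists, ordered by the interaction, with the number of tested genes. Division and megakaryocyte genes have HSC medians of 0.747 to 1.31 and interactions below 0, and stem cell and cytosolic ribosomal protein genes have HSC medians below 0 and interactions above 0.

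Beside what differed, part of the response was shared. The 2 effects share no libraries, and 12 genes were called in both, each with the same sign: Psrc1, Ccng1, Zmat3, Bax, Eda2r, Rps27l, Gem, Mlkl and Pla2g4a rose, and Trib2, Amigo2 and Rpl22l1 fell. They were 9.09% of the 132 calls in HSC and 13.5% of the 89 in MPP2. Of these 12, Psrc1, Ccng1, Zmat3, Bax and Eda2r belong to the p53 target lists, a reading made after the calls were seen. Psrc1, a microtubule-associated protein, was at 34, 28.2 and 28.4 CPM in HSC KO and at 8.97, 7.83 and 8.30 CPM in HSC Het. Its MPP2 levels were 91.3, 70.4 and 93.9 CPM in KO and 27.4, 20.2 and 26.2 CPM in Het. It differed by 1.85 ± 0.21 and 1.79 ± 0.21, and the interaction was -0.06 ± 0.29. Gem, a small GTPase, differed by 3.13 ± 0.58 in HSC and 3.92 ± 0.60 in MPP2. Trib2 was at 4.69, 4.91 and 3.25 CPM in HSC KO and at 25, 10.4 and 19.2 CPM in HSC Het, and at 9.35, 17.7 and 24.5 CPM in MPP2 KO and 82.4, 38.4 and 92.4 CPM in MPP2 Het, an interaction of 0.04 ± 0.52.

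Genes called in 1 population mostly had the same sign in the other with a smaller value. Of the 132 HSC calls 113 (85.6%) had the same sign in MPP2, and of the 89 MPP2 calls 71 (79.8%) had the same sign in HSC, against 57.5% of all genes. The called genes and all genes were not matched for level. The 69 genes that rose in HSC had a median effect of 1.02 there and 0.283 in MPP2, and the 63 that fell had -1.11 and -0.247. Since the HSC calls were chosen for their HSC values, the smaller MPP2 medians are a description and not a test. Across genes the 2 effects had a Pearson correlation of 0.0141 over all tested genes and 0.28 over the 12235 with a mean above 1 log2 CPM.

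**Figure D5:**
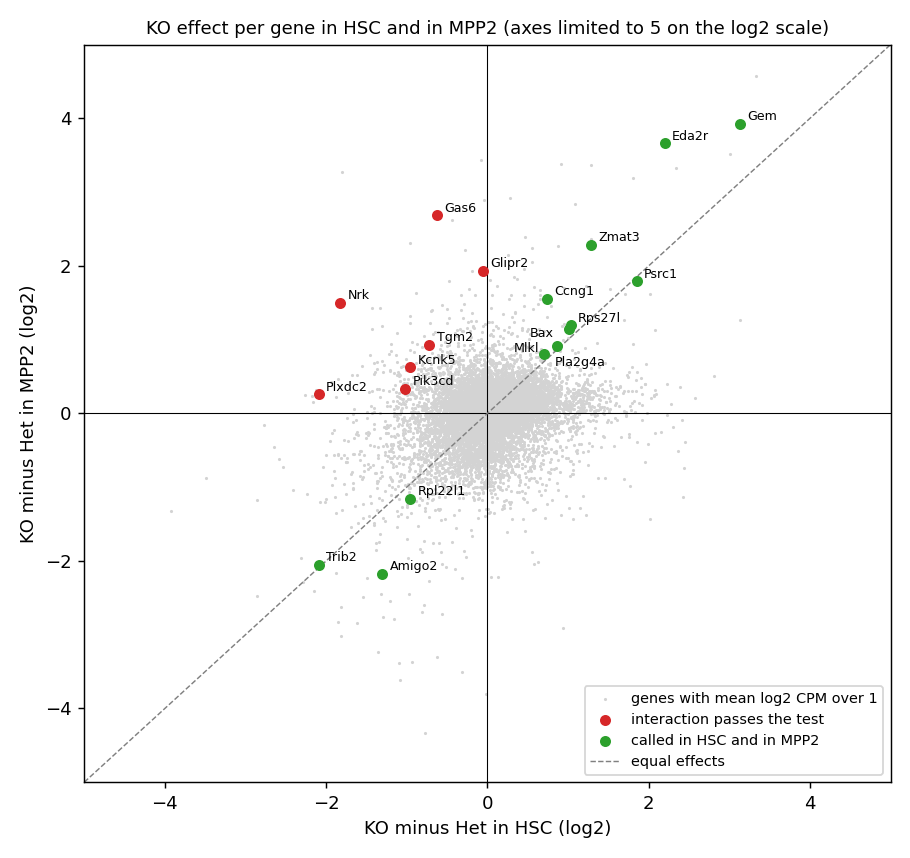
KO effect in HSC (x axis) and in MPP2 (y axis), in log2, for genes with a mean above 1 log2 CPM (grey), the 7 genes that pass the interaction test (red) and the 12 called in both populations (green), with a dashed line at equal effects; 1 grey point lies outside the axes. The red genes lie above the line with HSC effects from -2.09 to -0.05, and the green genes have the same sign in both.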

How the data were processed

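RNA-seq libraries of sorted mouse bone marrow populations were deposited as raw counts per gene symbol, without normalization by the authors, per the file headers. The length column of those files was not used. Reads were rRNA-depleted and stranded, per the labels. The submitters' processing notes name build mm9 and, in no stated order, TopHat2 2.0.9, Bowtie 1.0.0, Trimmomatic 0.33, FastQC, R 3.1.2, edgeR and featureCounts. Rows of the files were matched by symbol. A deposited table of normalized signal, whose method is not given in the sources used here, served for 1 alternative (limma-trend on log2(signal + 1)).

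The analysis used edgeR 4.0.16 (R 4.3.3), limma 3.58.1 and DESeq2 1.42.0. Of 23364 symbols, 21456 passed filterByExpr by group (least count 10). Libraries were scaled by TMM, and 1 quasi-likelihood model with robust dispersion gave 9 groups over 24 libraries their means, with 15 residual degrees of freedom. Tests were two-sided F tests with Benjamini-Hochberg adjustment over all genes. Errors of log2 values are the absolute value over the square root of F. The fit was run on simulated counts with known changes in MPP2 KO alone and less spread than these data (common dispersion 0.466). That run checks how the contrast is computed and cannot show how often calls in these data are wrong. CPM are relative to TMM-scaled totals, and log2 CPM used a prior count of 2. Depth limits low genes. Counts are given for Gas6 and Nrk alone, and not for other low genes such as Plk2 and Dusp4 in MPP2 Het or Cdkn1a in HSC Het.

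The libraries, gene lists and alternatives were chosen with earlier results of these data known, and the sets defined in Sham, the values for genes called in both populations and the GC box and STAT motifs were chosen after seeing the results. Named were passing genes with at least 2 CPM in the highest of the 4 groups, the next 10 by p in each direction with the same level, up to 4 passing or else 2 members of each list by p, and Mysm1. Other list members are named where they passed in HSC or MPP2, chosen after their values were seen. Symbols of pseudogenes, small RNAs, clones and predicted genes were not named. A list member that the rule would name is not reported here. Alternatives were DESeq2 and limma-trend, RLE scaling, no filter, no robust estimation, the 12 libraries alone, replicate blocks, Sham as control, and libraries left out. Promoters are from RefSeq (GRCm38.p6), and no coordinates were mixed with mm9. A single start in the RefSeq table was required, so Pik3cd with several starts was not shown.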

Additional observations from a re-analysis of the deposited data

Results flagged for a closer look

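The KO effect differed between MPP2 and HSC by the interaction test for 7 genes, given here as MPP2 effect minus HSC effect on the log2 scale: 1.59 for Kcnk5, 3.30 for Gas6, 3.32 for Nrk, 1.35 for Pik3cd, 1.99 for Glipr2, 2.35 for Plxdc2 and 1.65 for Tgm2, each higher in MPP2 (edgeR, adjusted p of 0.0198 to 0.0435, 3 libraries in each of 4 groups). For Kcnk5, Gas6, Nrk, Pik3cd and Tgm2 the KO and Het libraries did not overlap in either population and lay in opposite order. Glipr2 overlapped in HSC and Plxdc2 in MPP2. The genes were chosen by the test on these same libraries, so their order follows in part from that choice. How many of all genes show such an order was not counted.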

How the results depend on the processing

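The number of genes past the interaction test, 7 as reported, was 12 with the 12 libraries alone, 3 with RLE scaling, 67 with DESeq2, 11 with Sham in place of Het, 3 on the deposited normalized table and 1 without HSC KO library 1 and HSC Het library 2_3, those with the fewest genes. It ran from 0 to 50 with single libraries left out. The 132 HSC calls became 72 (12 libraries alone), 646 (DESeq2), 236 (limma-trend), 490 (Sham), 551 (deposited table), 4 (without both HSC libraries with few genes), 17 (without number 2_3 of both Het groups) and 285 (without number 1 of both), and 12 to 374 with single libraries left out. The 89 MPP2 calls became 36 (12 libraries alone), 173 (DESeq2), 135 (Sham) and 46 (without number 1 of both Het groups), and 37 to 102 with single libraries left out. The 12 MPP1 calls became 81 (DESeq2), 59 (deposited table) and 21 (without number 2_3 of both Het groups). The cause of these changes was not tested. Where libraries were left out, the groups also had fewer samples.

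With the replicate number as a block, the interaction had 34 calls, HSC 726, MPP2 122 and MPP1 35. With a block for each number within a genotype, fitted on the 12 libraries alone, 118 of 19305 genes tested passed the interaction. With that second block all 7 genes passed. So did list members that had not passed in the reported fit: 8 of 52 stem cell genes (above 0), 8 of 51 of G2 and mitosis, 3 of 47 of S phase and 5 of 28 of megakaryocytes (below 0). Ccng1, Plk2, H2-Aa, H2-Eb1 and Dusp4 also passed above 0, and Ptpn14 and Clec12a below. The labels do not say what a number marks. Deviations of same-numbered HSC and MPP2 libraries correlated at 0.22, 0.505 and 0.0294 in KO and at -0.00705, -0.0292 and 0.184 in Het over all tested genes, and at 0.13 to 0.751 over the 12235 genes above 1 log2 CPM, so the pairing depends on the genes used.

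Interactions that changed sign, none of which had passed, were with Sham in place of Het those of Tjp1 (-0.0629), Rpl37 (-0.251), Gnb2l1 (-0.18), Ndufs8 (-0.581), Ndufa8 (-0.529), Car1 (-1.54), Satb1 (0.476), Ier5 (-0.205), Mmp9 (0.265), Cd4 (1.06) and Mysm1 (-0.117). Mysm1 was also at -0.14 without both HSC libraries with few genes, -0.000522 without number 2_3 of both Het groups and -0.00189 without number 1. Itgam was at 0.291 without number 2_3 of both Het groups. With single libraries left out, Itgam ran from -0.955 to 0.281, Vpreb3 ran from -11.9 to 0.101, Slc25a37 ran from -0.0393 to 0.216, Dcn ran from -0.334 to 5.12 and Mysm1 ran from -0.0673 to 0.115. Depth limits low genes such as Nrk, which has 14 counts in 1 MPP2 Het library.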

Other observations

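Of MHC class II genes, which present antigen and which stem cells also express, H2-Aa and H2-Eb1 rose in MPP2. H2-Aa was at 9.99, 13.8 and 7.42 CPM in MPP2 KO and at 2.10, 2.95 and 3.59 CPM in MPP2 Het, while HSC KO (49.0, 43.9 and 45.3 CPM) lay just above HSC Het (28.4, 43.8 and 37.3 CPM). Its interaction was 1.52 ± 0.40 (adjusted p = 0.253). The list of MHC and peptide loading genes had a median interaction of 0.207, with 14 of 19 above 0, which was 0.0707 without MPP2 Het library 1, 0.0962 without HSC Het library 4, 0.124 without HSC Het library 2_3 and 0.0725 without HSC Het library 2_3 and HSC KO library 1. Dusp4, a phosphatase that switches off MAP kinases, was at 13.9, 12.2 and 6.88 CPM in MPP2 KO and at 1.39, 1.79 and 1.21 CPM in MPP2 Het, and in HSC it overlapped at 27.2, 26.9 and 21.8 CPM in KO and 12.3, 17.7 and 32.6 CPM in Het (interaction 2.64 ± 0.61, adjusted p = 0.19). Among Sham libraries, MPP2 minus HSC was -5.40 for H2-Aa and -4.77 for Dusp4 on the log2 scale.

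Cdkn1c, the p57 inhibitor of quiescent stem cells, was at 9.56, 9.65 and 13 CPM in HSC KO and at 15.1, 37.5 and 42.3 CPM in HSC Het, with overlapping groups in MPP2 and an interaction of 2.20 ± 0.66 (adjusted p = 0.451). The glucose transporter gene Slc2a1 had an interaction of 1.10 ± 0.32 (adjusted p = 0.347) and the glycolysis list a median of 0.186, with 17 of 20 above 0. Polycomb and H2A deubiquitinase genes had a median of 0.0616, with 20 of 32 above 0, and interferon response genes one of 0.243, with 30 of 42 above 0. These 3 list medians were below 0 with Sham in place of Het (-0.0656 for glycolysis, -0.0537 for Polycomb and -0.0117 for interferon). Erythroid genes had a median of 0.379, which was -0.32 without HSC Het library 1.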
